A study of Mus musculus with 2 samples.

Results

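The Dlx genes of the mouse (Dlx1 to Dlx6) were examined for trimethylation of lysine 27 of histone H3 (H3K27me3) in primary chondrocytes. The members were taken by gene symbol from the table in which the authors joined each peak of the mark to the gene records within 5 kb. All 6 Dlx genes were found there, among 4987 symbols joined to a peak, and they were reached through 12 distinct peaks of 19359. The cells were taken from the ribs of wild-type CD1 mice at the newborn stage, were released from cartilage with collagenase and were cultured overnight without treatment. Of the 2 libraries, 1 was chromatin precipitated with an anti-H3K27me3 antibody (ChIP, 17237574 tags after filtering) and 1 was the input DNA of the same preparation (17004082 tags after filtering). How many animals were pooled is not given in the sources used here. The libraries were assigned by their titles, since the antibody entries in the sample records are swapped between them. With 1 library per group no value has a replicate error and no test was made.

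Dlx genes encode homeodomain transcription factors related to Distal-less of the fly. In mammals they lie as linked pairs in which both genes are transcribed towards each other, so that their 3′ ends meet, and enhancers in the interval between them can act on both. They pattern the branchial arches, the limb ectoderm and the forebrain, and Dlx5 and Dlx6 promote chondrocyte hypertrophy and bone formation. H3K27me3 is deposited by Polycomb repressive complex 2 (PRC2), and it marks silenced developmental genes over broad stretches that often include the gene start.

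The pairs Dlx1/Dlx2, Dlx3/Dlx4 and Dlx5/Dlx6 lay on chromosomes 2, 11 and 6, at 3.12, 1.05 and 45.3 Mb from the HoxD, HoxB and HoxA clusters. All of them were marked, in a different arrangement. Dlx1/Dlx2 had 2 peaks of together 24.2 kb, Dlx3/Dlx4 had 5 peaks of 25.5 kb and Dlx5/Dlx6 had 5 peaks of 32.8 kb. These lengths depend on how far from the gene a peak is counted, since peaks over the gene bodies alone summed to 18.4, 21.8 and 6.31 kb, which put Dlx5/Dlx6 last. The counts fell to 1, 2 and 3 peaks at a fold enrichment of at least 3.5 and to 1, 2 and 4 at q-values of 0.01 or less. In each pair 1 broad peak held most of this length, namely 76.2% at Dlx1/Dlx2, 66.2% at Dlx3/Dlx4 and 60.5% at Dlx5/Dlx6. The share of genes joined to a peak was 20.7% over 21900 protein-coding genes (95% Wilson interval 20.2 to 21.2%), against 6 of 6 Dlx genes. The membership of each gene in the list of marked genes was known when the Dlx genes were chosen. The pileup (ChIP fragments stacked at a base, averaged over the peak and then weighted by peak length) was 13.2 at Dlx1/Dlx2, 12.5 at Dlx3/Dlx4 and 13.4 at Dlx5/Dlx6. The fold enrichment over the input background, weighted likewise, was 3.58, 3.51 and 3.75. No error can be set beside these differences between pairs, and they are given as values only.

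**Figure D1:**
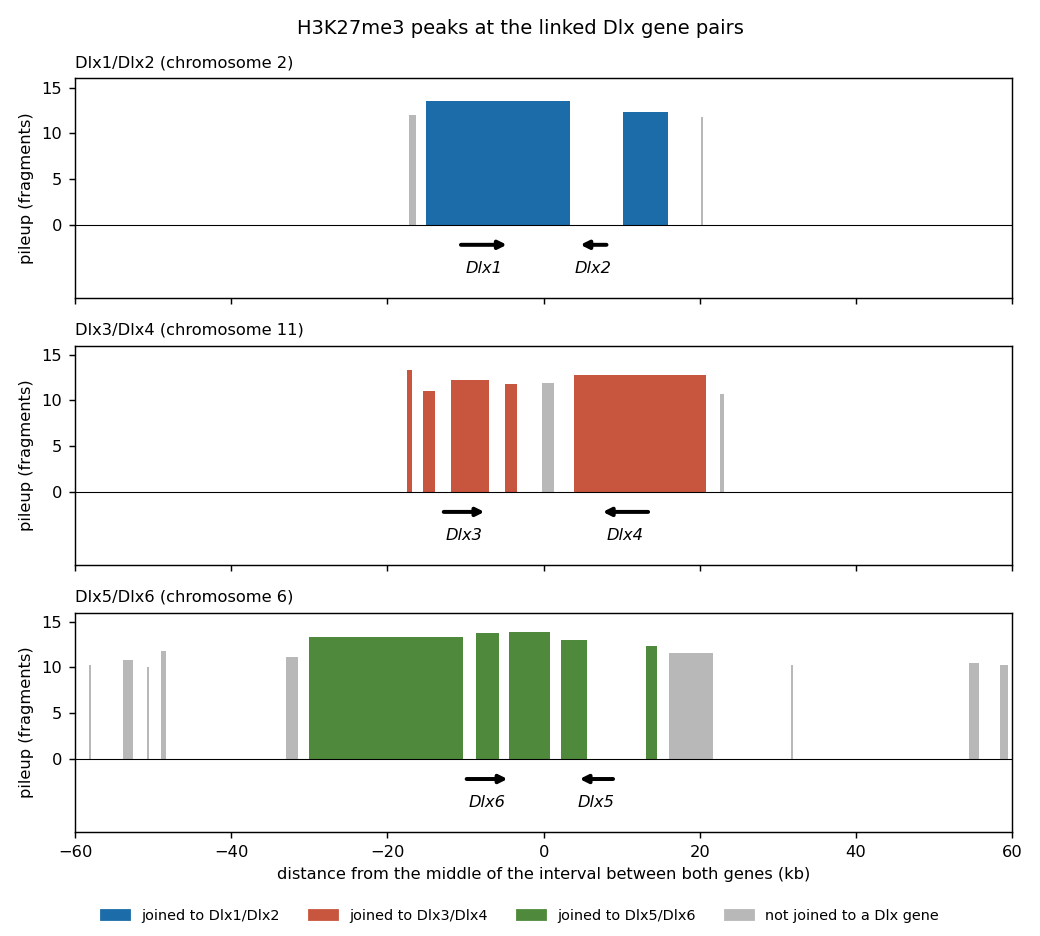
Peaks at the 3 Dlx pairs, with the distance from the middle of the interval between both genes in kb on the x axis and the pileup in ChIP fragments on the y axis. Each bar is 1 peak, coloured where it was joined to a Dlx gene and grey otherwise, and arrows show the genes in their direction of transcription. The widest peak covers Dlx1 and Dlx4 and ends just before Dlx6, while Dlx2 lies wholly between peaks.

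Dlx1 and Dlx2 act together in the development of forebrain interneurons and of the upper jaw. Dlx1 (chromosome 2, 71528114 to 71533981, plus strand, positions on GRCm38 throughout) was contained in a peak of 18.4 kb (71523669 to 71542080), which had a pileup of 13.5, a fold enrichment of 3.62 and, averaged over the peak, a q-value of 0.00389. This peak ran on over 85.9% of the interval towards Dlx2 and stopped short of it. Dlx2 (71543410 to 71546754, minus strand) had no base of its body under a peak. It was joined to the broad peak at its 3′ side and at 2167 bp upstream of its start to a peak of 5.76 kb (71548921 to 71554676), with a pileup of 12.34, a q-value of 0.0112 and a fold enrichment of 3.44. The unmarked gap between these peaks measured 6.84 kb and contained the whole of Dlx2. So in this pair 1 gene was covered from end to end and its partner was bare but flanked on both sides.

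RefSeq promoter sequences were given for both genes of this pair and for none of the other 4 members. They are shown because the promoter of Dlx1 was under the broad peak and that of Dlx2 was not. Each line gives the 250 bases upstream of a RefSeq start, 5′ to 3′ in the direction of the gene, on GRCm38.p6, with CG dinucleotides in capitals. The Dlx1 sequence (chr2:71529195-71529444, plus strand) precedes a start inside the deposited record of the gene, and the Dlx2 sequence is chr2:71546755-71547004 on the minus strand.
Dlx1: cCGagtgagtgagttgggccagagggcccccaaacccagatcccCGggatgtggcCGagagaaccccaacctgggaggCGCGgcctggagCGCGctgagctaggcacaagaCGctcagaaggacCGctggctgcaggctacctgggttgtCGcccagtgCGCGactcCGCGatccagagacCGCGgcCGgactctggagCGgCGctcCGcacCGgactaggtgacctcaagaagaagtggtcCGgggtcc
Dlx2: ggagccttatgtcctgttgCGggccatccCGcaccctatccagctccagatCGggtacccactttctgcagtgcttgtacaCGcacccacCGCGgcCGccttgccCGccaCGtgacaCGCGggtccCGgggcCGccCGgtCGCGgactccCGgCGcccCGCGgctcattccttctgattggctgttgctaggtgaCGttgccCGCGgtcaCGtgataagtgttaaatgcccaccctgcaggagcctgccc
Both were rich in CG dinucleotides, with 22 in Dlx1 and 24 in Dlx2, against a median of 6 over 32851 promoter windows of the same length (quartiles 2 and 16). Their GC content was 68.0% and 66.4%, against a median of 52.4%. Of all these windows 85.2% had fewer CG dinucleotides than that of Dlx1 and 88.0% had fewer than that of Dlx2. The marked and the bare promoter of this pair were therefore alike in this feature, and the nearest peak to the window of Dlx2 lay 1.92 kb away.

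Dlx3 controls hair, tooth and bone formation, and Dlx4 is a placental and craniofacial member of the family. Dlx3 (chromosome 11, 95120090 to 95125296, plus strand) was joined to 4 peaks. These measured 596 bp, 1.51 kb, 4.96 kb and 1.54 kb, and their summed length of 8.61 kb (8605 bp) was the shortest among the members. The peak of 4.96 kb (95120975 to 95125930) covered 83.0% of the gene and its 3′ end, with a pileup of 12.18 and a fold enrichment of 3.18, the lowest of the 12 peaks. The short peak of 596 bp (95115383 to 95115978), at 4112 bp upstream, had by contrast a pileup of 13.32, a q-value of 0.00208 and a fold enrichment of 3.90. The remaining peaks of Dlx3 had pileups of 11.05 and 11.81 and q-values of 0.0295 and 0.0136. Dlx4 (95140457 to 95146263, minus strand) was joined to a single peak of 16.9 kb (95136825 to 95153685), which contained the whole gene and reached past its start. Its pileup was 12.74, its fold enrichment 3.62 and its q-value 0.00575. The mark at this pair was thus in separate peaks at Dlx3 and in a single peak at Dlx4.

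Dlx5 and Dlx6 are the members with the clearest role in the skeleton, where they act in the lower jaw, the limb and the growth plate. Dlx6 (chromosome 6, 6863335 to 6868568, plus strand) had the largest summed length, of 28.1 kb in 3 peaks. A peak of 19.8 kb (6843087 to 6862915) ended 420 bp upstream of its start, with a pileup of 13.33, a q-value of 0.00288 and a fold enrichment of 3.77. Another of 2.96 kb (6864583 to 6867537) lay inside the gene and had the highest fold enrichment (3.91) and the lowest q-value (0.00154) of the 12. The third (6868739 to 6874024, 5.29 kb) lay between the genes, was joined to both and had the highest pileup, of 13.89. Dlx5 (6877806 to 6882085, minus strand) shared this peak. A peak of 3.36 kb (6875426 to 6878783) covered its 3′ end, with a pileup of 12.96 and a q-value of 0.00764, and a peak of 1.36 kb (6886365 to 6887725) stood 4280 bp upstream of its start, with a pileup of 12.40 and a q-value of 0.0119. Together the peaks covered 56.5% of the body of Dlx6 and 22.9% of that of Dlx5. Of the members 5 had a peak over the gene body, all but Dlx2, against 68.6% of the protein-coding genes joined to a peak (67.2 to 69.9%) and 14.2% of all protein-coding genes. The count was 4 at q-values of 0.01 or less and 3 at a fold enrichment of at least 3.5. The shares over protein-coding genes were not recomputed under these filters, so they stand beside the unfiltered count only.

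**Figure D2:**
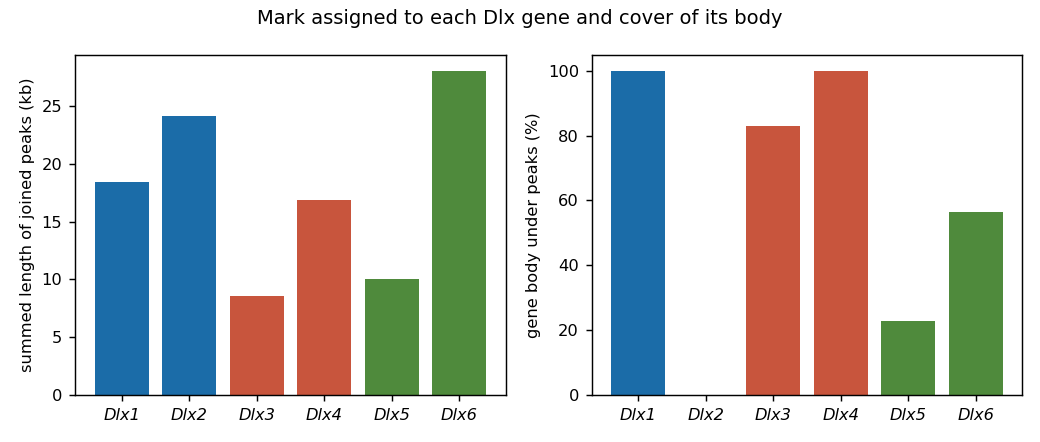
Summed length of the peaks joined to each Dlx gene in kb (left) and the share of its body under peaks in percent (right), with 1 bar per gene from the single ChIP library and pairs in 1 colour. The summed length runs from 8.61 kb at Dlx3 to 28.1 kb at Dlx6, and the cover of the body from 0% at Dlx2 to 100% at Dlx1 and Dlx4.

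Ordered by summed length, the members were Dlx6 (28.1 kb), Dlx2 (24.2 kb), Dlx1 (18.4 kb), Dlx4 (16.9 kb), Dlx5 (10.0 kb, 10005 bp) and Dlx3 (8.61 kb). Over all 4987 symbols 73.2% had less than Dlx3, the lowest member, and 251 had as much as Dlx6 or more. By weighted pileup the order was Dlx1 (13.5), Dlx6 (13.49), Dlx5 (13.4), Dlx2 (13.2), Dlx4 (12.7) and Dlx3 (11.99), against a median of 11.4. Dlx3 was last in both orders. Peaks that 1 pair shares enter the values of both of its genes, and without replicates it cannot be said which neighbours in these orders differ. The order by summed length does not follow the cover of the gene itself, since Dlx2 was second in length with a bare body.

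The Dlx family falls by protein sequence into the group of Dlx1, Dlx4 and Dlx6 and the group of Dlx2, Dlx3 and Dlx5, and every pair holds 1 gene of each. This grouping is background and was applied after the values had been seen. In each pair the gene of the first group had the larger share of its body under peaks. The shares were 100% in Dlx1 and 0% in Dlx2, 100% in Dlx4 and 83.0% in Dlx3, and 56.5% in Dlx6 and 22.9% in Dlx5. The broad peak of each pair also lay over the gene of the first group, or directly upstream of it in the case of Dlx6. When only peaks with q-values of 0.01 or less were kept, the body of Dlx3 was at 0%, and the direction was the same in the 3 pairs. A comparison of 3 pairs from 1 library gives no error.

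As single peaks, the 12 peaks at the Dlx genes stood above the middle of the list in most measures. Their pileup ran from 11.05 to 13.89 with a median of 12.85, and 12 of 12 were above the median of 11.04 over all peaks, the lowest of them only just. The fold enrichment ran from 3.18 to 3.91 with a median of 3.54, against 3.16 over all peaks, and again 12 of 12 were above. The width was above the median of 1.27 kb in 11 of 12, the exception being the peak of 596 bp upstream of Dlx3. A q-value of 0.01 or less was reached by 7 of the 12, against 11.0% of all peaks, and 0.05 by 12 of 12, against 60.8%. Of the 12, 3 were 10 kb or wider, against 3.46% of all peaks. The medians of the 670 peaks of this width were a pileup of 12.61 and a fold enrichment of 3.497, so the broad Dlx peaks, with pileups of 13.5, 12.74 and 13.33, lay slightly above these medians. The input background implied by pileup and fold enrichment was 2.67 to 3.14 fragments at the 12 peaks.

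**Figure D3:**
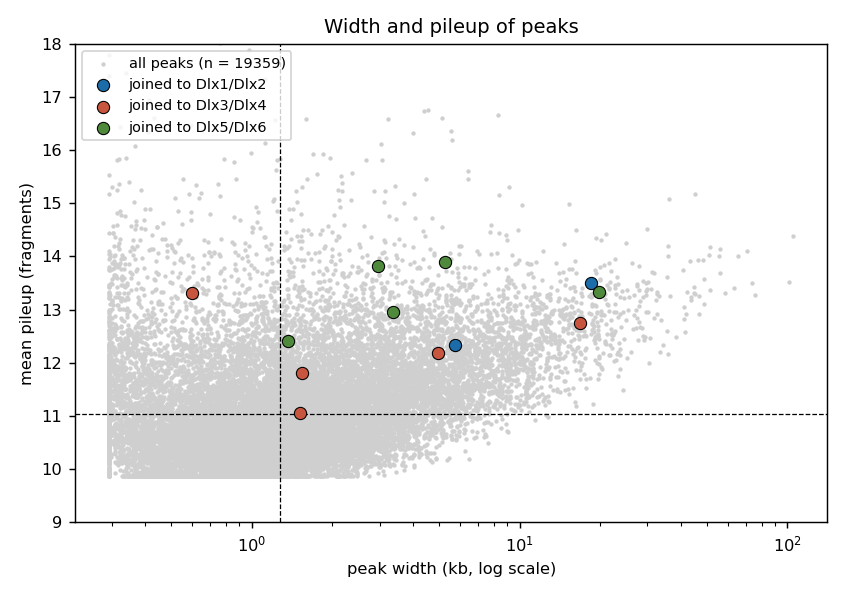
Width in kb (x axis, log scale) against mean pileup in fragments (y axis) for all 19359 peaks (grey points, of which 58 lie above the axis limit of 18) and the 12 peaks joined to a Dlx gene (coloured by pair). Dashed lines mark the medians of all peaks, 1.27 kb and 11.04 fragments, and all coloured points lie above the line of the pileup.

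The gene starts were covered in Dlx1 and Dlx4 and bare in Dlx2, Dlx3, Dlx5 and Dlx6. Over all symbols joined to a peak the start was covered in 22.5% (21.3 to 23.7%), and over all protein-coding genes in 4.45%. Each of the 4 bare Dlx starts had a peak within 5 kb both upstream and downstream. For Dlx3 the peaks stood 1142 bp upstream and 885 bp downstream of the start. For Dlx6 they stood 420 and 1248 bp away, for Dlx2 2167 and 4674 bp, and for Dlx5 4280 and 3302 bp. The starts of Dlx3 and Dlx6 thus lay in gaps of 2.03 and 1.67 kb, and those of Dlx2 and Dlx5 in wider gaps, of 6.84 and 7.58 kb. Of all gaps between neighbouring peaks, 16.5% were as short as that of Dlx6, 23.3% as that of Dlx3, 50.2% as that of Dlx2 and 51.9% as that of Dlx5. The median of all gaps was 6.76 kb, close to those of Dlx2 and Dlx5, and the smallest was 1177 bp. Among all symbols joined to a peak, 17.5% had a bare start with a peak within 5 kb on each side, and among those with a bare start the share was 22.6% (21.3 to 24.0%). The measure was chosen after the positions had been seen. With a reach of 2 kb it held for 2 Dlx genes (Dlx3 and Dlx6), against 11.4% of symbols. Among peaks with q-values of 0.01 or less it held for 1 Dlx gene, and no share over all symbols was computed under that filter. The peak list does not give the number of fragments inside a gap, so a bare start means only that no region there reached the threshold of the caller.

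**Figure D4:**
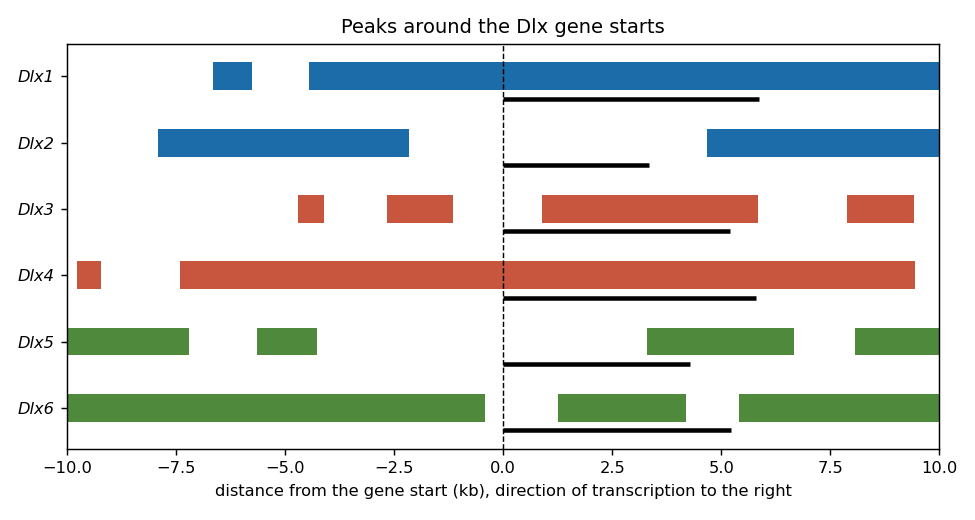
Peaks (coloured bars) around the start of each Dlx gene, with the distance from the start in kb on the x axis, transcription running to the right, and the gene body as a black line. The dashed line at 0 is the start, which is under a peak in Dlx1 and Dlx4 and between peaks in the other 4 genes.

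The interval between both genes carried the mark in every pair. It was 9.43 kb long between Dlx1 and Dlx2, where 1 peak covered 85.9% of it. Between Dlx5 and Dlx6 it was 9.24 kb long and 2 peaks covered 83.0%, and at a fold enrichment of at least 3.5 the 1 peak left covered 57.2%. Between Dlx3 and Dlx4 it was 15.2 kb long and 4 peaks covered 48.2%, and under either of the filters on the q-value (0.01 or less) and on the fold enrichment (at least 3.5) the 1 peak left covered 24.0%. Of these 4 peaks, 1 of 1.51 kb (95132650 to 95134155) was joined to no gene, since it lay 6302 bp from the nearest member, and its pileup was 11.90 and its q-value 0.0202. The 3′ ends of Dlx1, Dlx3, Dlx4 and Dlx5 were under a peak, against 15.7% of all symbols joined to a peak, and those of Dlx2 and Dlx6 were not. The number of covered ends was 3 at q-values of 0.01 or less and 2 at a fold enrichment of at least 3.5, for which no share over all symbols was computed.

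Other protein-coding neighbours that meet tail to tail were taken for comparison, with strands from the RefSeq promoter table, which held 79.9% of protein-coding genes. All 3 Dlx pairs had a peak in between, and all consist of genes joined to a peak. Among 67 other pairs 5 to 20 kb apart in which both genes were joined to a peak, 39 had a peak in between (58.2%, 46.3 to 69.3%). Without that condition the share was 13.7% at any distance, and of 759 pairs 5 to 20 kb apart 80 had a peak in between (10.5%, 8.55 to 12.9%), and 1.71% had at least the share of the interval under peaks that Dlx3/Dlx4 had. Among the 67 pairs this share of the interval was reached in 9 (13.4%), and the median was 5.77%. The highest value was 88.2%, between Bsx and Jhy, and no other of the 67 exceeded the values of Dlx1/Dlx2 and Dlx5/Dlx6. The other pairs were not recomputed under the filters, which lower the value of Dlx3/Dlx4. A fold enrichment of at least 3.5 also lowers that of Dlx5/Dlx6, to 57.2%, so its place among these pairs holds only without this filter. The range of 5 to 20 kb was set after the lengths of the Dlx intervals were known.

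**Figure D5:**
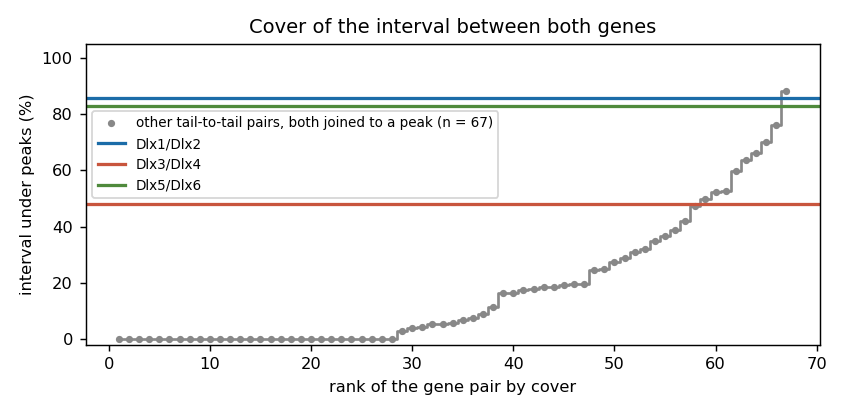
Share of the interval between neighbouring tail-to-tail genes under peaks in percent (y axis) for the 67 other pairs in which both genes were joined to a peak (grey points in order of rank, x axis) and for the Dlx pairs (coloured lines). The lines of Dlx1/Dlx2 (85.9%) and Dlx5/Dlx6 (83.0%) lie above all grey points but the one at 88.2%, and 9 points lie above the line of Dlx3/Dlx4 (48.2%).

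Non-coding RNA genes on the opposite strand accompany each pair. Dlx1as (71530638 to 71537891), which begins between the genes and runs into Dlx1, had no entry under this name in the deposited table, and 100% of it lay under the broad peak of Dlx1. Dlx4os (95145053 to 95159047), listed there as A730090H04Rik, was joined to 2 peaks, the broad peak of Dlx4 among them, and 65.6% of it was covered. Dlx6os1, also known as Evf2, gives rise to an RNA that binds DLX proteins and acts on the enhancers of Dlx5 and Dlx6. It spans 51.1 kb (6820543 to 6871627), was joined to 8 peaks of together 32.2 kb, and 55.3% of it was covered. Dlx6os2, a gene of 1.35 kb within Dlx6, was covered over 41.9%. Since the mark has no strand, where these genes overlap a Dlx gene its cover and theirs cannot be told apart.

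Promoter sequences of these RNA genes were also given, and 1 of the 2 windows of Dlx6os1 is shown because it lay under the peak between Dlx6 and Dlx5 and holds matches to a motif of homeodomain proteins, for which it was chosen. No binding was measured. It covers chr6:6869534-6869783 on the minus strand, 5′ to 3′, with the motif TAATTA in capitals.
Dlx6os1: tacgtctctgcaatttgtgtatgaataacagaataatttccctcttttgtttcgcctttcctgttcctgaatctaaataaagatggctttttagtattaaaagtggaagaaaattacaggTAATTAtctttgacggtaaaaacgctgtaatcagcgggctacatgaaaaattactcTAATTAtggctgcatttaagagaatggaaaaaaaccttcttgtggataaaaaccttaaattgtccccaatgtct
The motif reads the same on both strands and is a core sequence bound by many homeodomain proteins. It occurred 2 times here and 1 time in the second window of Dlx6os1, against 4.84% of all 32851 windows with at least 1 match. The windows of Dlx1, Dlx2, Dlx4os and Dlx6os2 had 0 matches. The motif TATAAA, read on both strands, was found 2 times in the second window of Dlx6os1 and 0 times in the others, against 12.4% of all windows. The shown window had a GC content of 33.2%, against a median of 52.4%, and 5 CG dinucleotides, against 22 and 24 CG dinucleotides at Dlx1 and Dlx2. Of these 6 windows at the Dlx loci, 5 lay under a peak over their full length, and that of Dlx2 was the exception.

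Between the outer ends of both genes, peaks covered 74.9% for Dlx1/Dlx2, 66.6% for Dlx3/Dlx4 and 61.9% for Dlx5/Dlx6. Over 100 kb on each side the cover was lower. Those windows are longer than the spans between the outer ends (18.6, 26.2 and 18.8 kb), so the shares are not on a like scale. Directly upstream of Dlx6 the cover was near complete, since the peak of 19.8 kb ended 420 bp from its start. Within 100 kb to the left and right of Dlx1/Dlx2, peaks covered 6.89% and 6.07% of the sequence. For Dlx3/Dlx4 these shares were 2.11% and 17.2%, and the larger value included the part of the broad Dlx4 peak beyond the gene start. For Dlx5/Dlx6 they were 30.1% on the side of Dlx6 and 10.4% on the side of Dlx5, and the larger value included the broad peak upstream of Dlx6. With peaks within 5 kb of each other joined, the domain at Dlx1 spanned 20.6 kb and left out Dlx2. The domain at Dlx3/Dlx4 spanned 40.7 kb with 7 peaks, and that at Dlx5/Dlx6 spanned 38.6 kb with 5 peaks. The latter ended at 6878783 inside Dlx5 and left out the start of this gene. Its 5 peaks are not the 5 joined to the pair. It includes a peak upstream of Dlx6 that was joined to no Dlx gene, and the joined peak upstream of Dlx5 lay outside it. Of the nearest protein-coding genes on either side, Metap1d, a mitochondrial methionine aminopeptidase gene 2.92 kb from Dlx1, was joined to peaks, among them the broad Dlx1 peak, which reached its end. Itga6, Itga3, Tac4, Sem1 and Sdhaf3, at 43.2 to 284.7 kb from the Dlx genes, had 0 peaks within 5 kb.

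Genes linked to Dlx function were read from lists. Of 4 partners of DLX proteins, 3 were joined to a peak, and these were the Msx genes, whose homeodomain proteins bind similar sites. Msx1 had 21.4 kb in 2 peaks, Msx2 25.8 kb in 2 and Msx3 19.3 kb in 1, which is within the range of the Dlx genes, and the start was covered in Msx2 and Msx3. Maged1, which encodes a cofactor that binds DLX proteins, had none. Of 11 signals and regulators upstream of Dlx genes, 6 were joined to a peak. Hand2, a transcription factor of the lower jaw and limb, had a single peak of 51.2 kb with a pileup of 13.4, and Wnt3, Fgf8, Bmp4 and Fgf10 had 37.0, 17.0, 7.09 and 2.502 kb. Edn1, the ligand that induces Dlx5 and Dlx6 in the arches, had 1.29 kb, and Ednra, its receptor, had no peak. Trp63, Mef2c, Bmp2 and Bmp7 had none either.

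Of 12 known or proposed targets, 8 were joined to a peak. Among the targets in patterning and neurons, Gbx2 had 43.6 kb, Gad1 19.1 kb, Gsc 17.4 kb, Alx4 13.2 kb and Gad2 12.6 kb. Among the targets in skeletal differentiation, Ibsp, which encodes bone sialoprotein, had a peak of 0.908 kb, while Runx2, Sp7, Bglap and Col10a1 had none within 5 kb, and their nearest peaks lay 129.6 to 1500.1 kb away. The background for these counts is the share of 20.7% given above, and the lists were drawn up with earlier results of these data known.

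The labelled cell type was read against marker genes, for which the files hold a repressive mark and no RNA. None of 16 chondrocyte markers, Col2a1, Acan and Sox9 among them, was joined to a peak. Of the markers of other cells, 3 of 4 for skeletal muscle (Myod1, Myf5 and Pax7), 1 of 3 for endothelium (Kdr), 1 of 2 for blood (Ptprc) and 2 of 3 for fibroblasts and perichondrium (Col1a1 and Twist2) were. Over all protein-coding genes the share was 20.7%. Whether the chromatin of other cell types takes part in the mark at the Dlx genes was not tested.

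The symbols nearest to each member in summed length and weighted pileup, both on a log scale in units of the SD over all symbols, were Wnt1 and Olig3 for Dlx2, Grp and Brsk2 for Dlx3, Rprml and Bnc1 for Dlx4, and Nkx1-2 and Dll4 for Dlx5. For Dlx1 they were n-R5s121 and n-R5s122, copies of the 5S ribosomal RNA gene under a single peak, where reads of near-identical copies may be misplaced and the value is uncertain. For Dlx6 they were Dlx6os2, which has the same 3 peaks, and 4931429I11Rik. The distances ran from 0 to 0.0853 SD, over 2 measures from 1 library.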

How the data were processed

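Per the labels, reads were handled with CASAVA 1.8.4, Bowtie2 and MACS2 on mm10, the assembly also called GRCm38. Per the file headers, broad peaks of 1 ChIP library were called against 1 input library with MACS 2.1.0.20140616, a q-value cutoff of 0.05 and a fragment length of 294 bp, from trimmed reads without duplicates, and with scaling towards the smaller library. The pileup, a coverage signal, the fold enrichment, a ratio of pileup to input background with 1 added to each, and the p-values and q-values, as −log10 values averaged over each peak, were deposited by the authors. The tool that joined peaks to gene records is not given in the sources used here.

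Both tables held the same values for all 19359 peaks. Symbols were split at semicolons. Peaks were counted by name, and cover was computed in bases from the deposited gene records, with Python 3.11.15 and pandas 2.3.3. Gene records and the RefSeq gene table (GRCm38.p6) placed 97.0% of 4774 shared symbols within 1 kb of each other at an end, and 98.8% of symbols were matched. The implied input background was taken as (pileup + 1) / fold enrichment − 1, which is approximate for values averaged over a peak. Interval functions were tested on simulated peaks.

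Named genes were the 6 members, opposite-strand genes of their loci, the nearest protein-coding gene on each side, genes of the lists that carried a peak (some targets are counted but not reported here by name), and for each member the 2 symbols nearest in summed length and pileup. Unmarked genes of the lists, and Bsx and Jhy, were named after their values were seen. The members and lists were chosen with earlier results of these data known. Wilson intervals at 95% cover counting error only. Values from 1 library allow no test, and protein sequences were not used here. The alternatives were filters on the q-value, fold enrichment and width, other assignments of peaks to genes, other gene positions and other summaries.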

Additional observations from a re-analysis of the deposited data

How the results depend on the processing

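In all, 162 values were recomputed over 29 results, of which 136 stayed within 1.5 times the reported value for counts and lengths, within 5% for pileup and fold enrichment and within 5 percentage points for cover of a gene body or of an interval between genes, and 26 moved beyond. All 6 genes remained joined to a peak under each filter on peaks, and 5 did where the peak had to overlap the gene body, which left out Dlx2. No paired analysis was possible because 1 ChIP and 1 input library give no pairs. The cause of a move was not tested, except that a filter leaves fewer peaks by construction.

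Keeping q-values of 0.01 or less left 1 peak joined to Dlx1/Dlx2 and 2 to Dlx3/Dlx4, 1 peak between Dlx3 and Dlx4, and 1 bare start with a peak on each side. The share of the body of Dlx3 fell to 0%. A fold enrichment of at least 3.5 left 1, 2 and 3 peaks joined to Dlx1/Dlx2, Dlx3/Dlx4 and Dlx5/Dlx6, 1 peak between the genes in Dlx3/Dlx4 and in Dlx5/Dlx6, 1 such bare start, 3 genes with a peak over the body, 2 covered 3′ ends, and 0% of the bodies of Dlx3 and Dlx5. Overlap with the gene body left 1, 2 and 2 joined peaks and a summed length of 6.31 kb at Dlx5/Dlx6, where the peaks upstream of both genes and the peak between them no longer counted. With the peaks joined to a Dlx gene counted together where they lay within 5 kb of each other, Dlx3/Dlx4 and Dlx5/Dlx6 had 2 each. The unassigned peak between Dlx3 and Dlx4 was left out of this count, and with it both stretches at Dlx3/Dlx4 are joined into 1. The single domain of 40.7 kb given above also includes a further peak upstream of Dlx4 that was joined to no Dlx gene. With 1 kb allowed on either side, 4 starts counted as covered, which added Dlx3 and Dlx6. With a reach of 2 kb, 2 bare starts had a peak on each side.

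The depth limits what a gap means. The lowest pileup called was 9.86 fragments, so a weaker mark over Dlx2 or over the bare starts would not be detectable here. The alternatives for bare starts, 3′ ends and the cover of gene bodies and intervals were added after seeing the data.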
